A study of Mus musculus with 6 samples.

Results

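In the second of the 2 gene tables deposited for this experiment, 151 genes were lower in mouse 3T3-L1 cells given Lhx8 siRNA than in cells given the transfection vehicle. They were chosen by a rule on the values themselves. Some cells of the table are stored as dates and were not read as measurements, so a gene needed a plain number in at least 2 libraries of each group, and the log2 of its siRNA mean over its vehicle mean, with 0.1 added to each mean, had to be at or below -0.2. Of the 602 genes of this table, 496 had enough plain numbers and 177 (35.7% of the 496) met the cut-off. Of these, 26 were left out by name, either because their symbol is a provisional gene model or because they belong to a list of 30 genes that the rule names, which left 151 of the 817 different genes in both tables together. The siRNA and vehicle values chose the genes, so every difference between the groups given here is a description without a test.

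The experiment compared 3 libraries of 3T3-L1 cells transfected with Lhx8 siRNA with 3 libraries of cells given the transfection reagent Turbofectamine, and asked which genes responded to loss of Lhx8. Both groups were wild-type and grew in the same serum-containing medium. The labels give the cells as preadipocytes, while the methods of the study speak of cultured adipocytes, and the labels number the cell line upward from 3T3-L1 to 3T3-L6 over the 6 samples. As described for these libraries, the vehicle group received no siRNA, so loss of Lhx8 and the presence of any siRNA cannot be told apart. The study calls the sequencing controls vehicle-treated, but names non-silencing siRNA as the control in another assay of 3T3-L1 cells. Lhx8 itself is in neither table, so its knockdown could not be checked in these libraries. By immunostaining, the study reports loss of LHX8 in cultured primary mouse adipocytes given Lhx8 siRNA. No source used here says that the libraries came from separate cultures.

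3T3-L1 is a line of mouse fibroblasts committed to the fat lineage. In growth medium the cells proliferate as spindle-shaped preadipocytes that lay down collagens, fibulins and other matrix, and a hormonal cocktail turns them into lipid-filled adipocytes. Lhx8 belongs to the LIM homeodomain transcription factors, which bind DNA through a homeodomain with a TAATTA core and recruit partners through their paired LIM zinc fingers. An siRNA guides the RNA interference machinery to a matching mRNA, which is then cut.

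To see whether the homeodomain core lies near the start sites of these genes, the letters TAATTA, which read the same on both strands, were searched in RefSeq promoters of mouse build GRCm38.p6, each running from 250 bases before to 50 bases after the start site. A promoter was found for 105 of the 151 genes by symbol. The letters were present in 3 of these 105 genes (2.86%), in 5 of 265 other genes of the table (1.89%) and in 1655 of all 27025 genes with a promoter (6.12%). The median GC content of these promoters was 58.3% for the 151 genes, 62.0% for the other genes of the table and 52.7% for all genes. The 3 genes with a match were Spp1, Plpp3 and Steap3, and the 250 bases before their start sites are printed because they carry the only matches, in capitals. The match starts 122, 124 and 202 bases before the start site, in that order, and a match of 6 letters is not by itself a binding site.
Spp1, chr5:104435942-104436191, plus strand: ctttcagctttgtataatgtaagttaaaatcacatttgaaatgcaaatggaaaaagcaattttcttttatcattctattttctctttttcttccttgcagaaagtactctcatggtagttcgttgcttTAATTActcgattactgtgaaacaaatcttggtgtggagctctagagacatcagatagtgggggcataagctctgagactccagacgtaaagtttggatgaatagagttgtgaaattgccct
Plpp3, chr4:105157097-105157346, plus strand: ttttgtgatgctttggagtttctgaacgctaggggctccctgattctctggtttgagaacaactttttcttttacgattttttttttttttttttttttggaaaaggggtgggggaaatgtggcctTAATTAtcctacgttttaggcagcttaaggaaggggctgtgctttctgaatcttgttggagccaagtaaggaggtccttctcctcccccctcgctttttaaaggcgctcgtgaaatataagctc
Steap3, chr1:120258879-120259128, minus strand: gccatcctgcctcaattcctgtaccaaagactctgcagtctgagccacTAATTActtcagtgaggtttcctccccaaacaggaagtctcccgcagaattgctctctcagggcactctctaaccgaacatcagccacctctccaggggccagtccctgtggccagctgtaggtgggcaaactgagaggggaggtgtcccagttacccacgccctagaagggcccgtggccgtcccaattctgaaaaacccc

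Most differences were small, and as the cut-off removed every gene above -0.2, their narrow range follows in part from the rule. The median log2 difference of the 151 genes was -0.32, with the middle 50% between -0.39 and -0.25, while the median over all 496 genes was 0.13. Only 13 of the 151 genes were lower by at least 30%, 15 had a log2 difference of -0.5 or less, and 2, Fam69c and Kbtbd11, were at -1 or less. In limma, a linear model that shares information on spread between genes, fitted on log2 of the value plus 0.1 across all 496 genes, 151 of the 151 genes had an adjusted p under 0.05 on the lower side, and so did 48.8% of the 496 genes, with another 49.6% on the higher side. Nearly every gene of the table thus passed on the lower or the higher side, and as the cut-off and limma read the same contrast, nothing about these genes follows from that count. With each library scaled to the same median, limma placed 184 of the 496 genes (37.1%) lower and 251 (50.6%) higher. The medians were taken over the 273 genes with 6 plain numbers. Before scaling they were 143.8, 147.5 and 146.4 in the siRNA libraries, and 151.7, 154.8 and 153.7 in the vehicle libraries. Scaling thus raised siRNA values relative to vehicle values, which moves every difference upward and takes up part of the contrast itself. Among the 84 genes with 6 plain numbers, every siRNA value lay under every vehicle value in 84, where 53.5% of all 273 genes with 6 plain numbers showed that order. With 3 libraries against 3, an exact two-sided permutation test on a single gene cannot go below p = 0.1. The scale of the values is not known to be corrected for gene length, so levels are compared between libraries and not between genes.

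**Figure D1:**
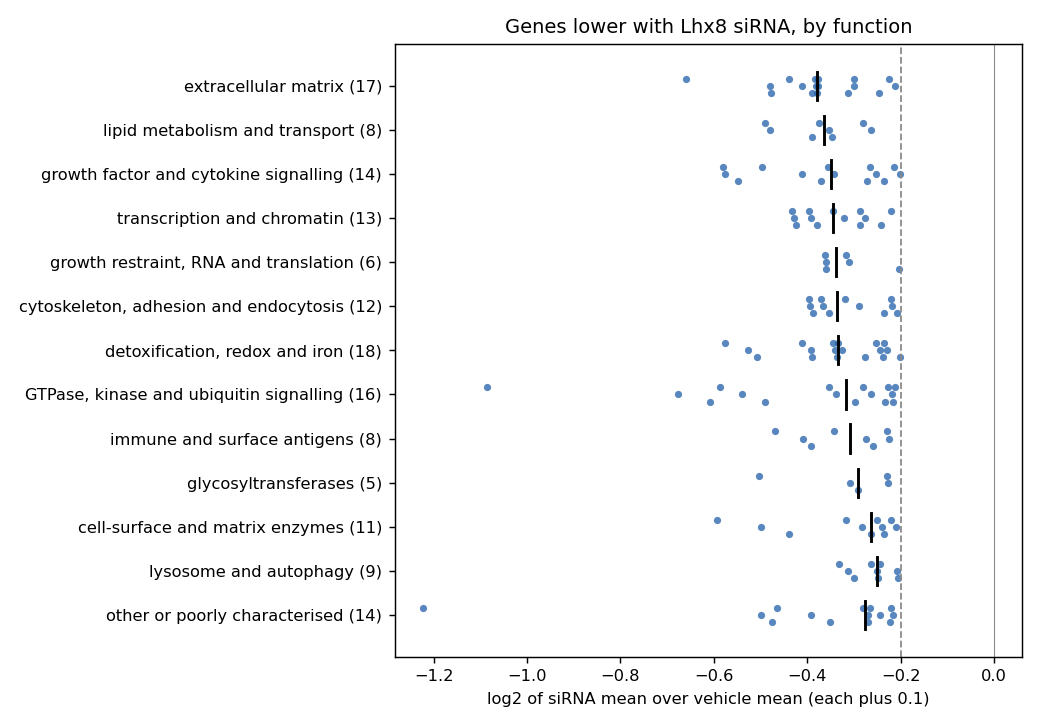
Each point is 1 of the 151 genes, placed by the log2 of its siRNA mean over its vehicle mean (each plus 0.1, horizontal axis) in the row of its function group, with the number of genes in parentheses; black bars are group medians and the dashed line is the cut-off of -0.2. Group medians lie between -0.38 and -0.25, and 2 genes lie at -1 or less.

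The 2 lowest ratios belonged to genes with values under 2 on the scale of the table. Here and below, a negative value in parentheses after a gene is its log2 difference, siRNA over vehicle. Fam69c, of a family of kinase-like proteins of the endoplasmic reticulum, gave 0, 0.12 and 0.06 in the siRNA libraries, and 0.23, 0.35 and 0.24 in the vehicle libraries. Its groups did not overlap, but its values are close to the 0.1 added to each mean, so its log2 difference of -1.22 became -0.26 with 1 added and -2.02 with 0.01 added. Kbtbd11, a kelch and BTB domain protein, gave 0.86, 0.78 and 0.77 in the siRNA libraries, and 1.95, 1.79 and 1.71 in the vehicle libraries (-1.09). The groups of Kbtbd11 did not overlap, and its siRNA mean was 44.2% of the vehicle mean, although 1 added to each mean brought the log2 difference to -0.64. Among genes with higher values, Rassf2, a Ras association domain protein, gave 10.5, 12.9 and 14.0 in the siRNA libraries, and 18.3, 20.1 and 21.5 in the vehicle libraries (-0.68). Its siRNA library 1 was the lowest of the 6, and the siRNA mean was 62.4% of the vehicle mean.

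**Figure D2:**
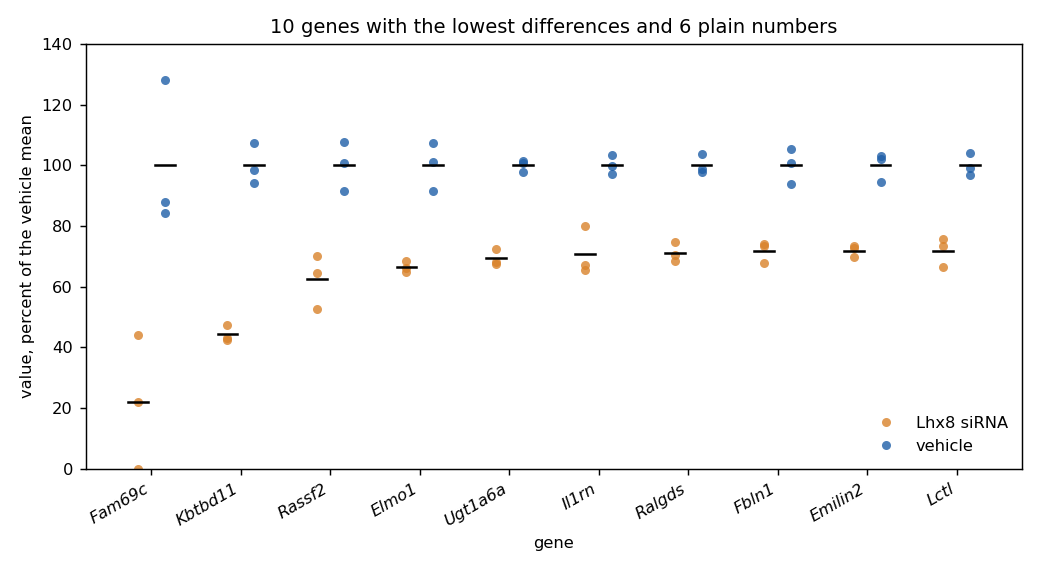
Values of the 10 genes with the lowest log2 differences among those with 6 plain numbers, each as a percentage of the gene's own vehicle mean (vertical axis); points are libraries (orange siRNA, blue vehicle) and black bars are group means. From Rassf2 to Lctl the siRNA means lie between 62.4% and 71.8% of the vehicle mean, and no siRNA point reaches a vehicle point of the same gene.

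To describe what the 151 genes do, they were sorted by hand into 12 groups by known function and a rest of 14 genes, after their names and values had been seen. Extracellular matrix proteins made up 17 genes, with the lowest group median, -0.38. Fbln1, encoding fibulin-1, a glycoprotein of basement membranes and elastic fibres, gave 116, 127 and 126 in the siRNA libraries, and 181, 161 and 173 in the vehicle libraries (-0.48). Emilin2, an elastin-associated glycoprotein, gave 97.4, 102 and 101 in the siRNA libraries, and 132, 143 and 144 in the vehicle libraries (-0.48). In both, the siRNA libraries lay below all vehicle libraries, and their siRNA means were 71.7% and 71.9% of the vehicle means. Spp1, encoding osteopontin, a phosphoglycoprotein that binds integrins and bone mineral, gave 384, 419 and 418 in the siRNA libraries, and 545, 528 and 526 in the vehicle libraries (-0.39). Tgfbi, a matrix protein induced by TGF-beta, gave 259, 268 and 265 in the siRNA libraries, and 336, 344 and 352 in the vehicle libraries (-0.38). The gap between the groups was 107 units for Spp1 and 67.2 for Tgfbi, in each case wider than the range of values within either group.

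Other matrix genes were close to these. The elastic-fibre protein fibulin-3 (Efemp1) was 131 ± 4.44 (SD, n = 3) with siRNA against 169.9 ± 8.58 (SD, n = 3) with vehicle. The counter-adhesive protein hevin (Sparcl1) was 156 ± 8.09 (SD, n = 3) with siRNA against 202 ± 16.1 (SD, n = 3) with vehicle. Tenascin-X (Tnxb), which links collagen fibrils, had only 5 plain numbers, 3.62 and 4.58 in siRNA libraries 1 and 2, and 5.52, 6.74 and 7.34 in the vehicle libraries, and the lowest log2 difference of the group, -0.66. The 3 matrix genes with the highest vehicle means on the scale of the table had smaller differences than the group median. Ecm1, extracellular matrix protein 1, gave 1114, 1084 and 1198 in the siRNA libraries, and 1413, 1431 and 1336 in the vehicle libraries (-0.30). Col6a2, the alpha 2 chain of the beaded-filament collagen VI, gave 1490.1, 1559 and 1538 in the siRNA libraries, and 1642, 1852 and 1820.4 in the vehicle libraries (-0.21). Thbs2, the anti-angiogenic thrombospondin 2, gave 638, 692 and 617 in the siRNA libraries, and 738, 826 and 855 in the vehicle libraries (-0.31). Vehicle 1 was the lowest vehicle library for Col6a2 and Thbs2 but not for Ecm1, and in none of the 3 genes did it reach the siRNA libraries.

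Matricellular proteins of the CCN family sit in the matrix and modify growth factor and integrin signals. Wisp2 (CCN5) gave 74.1 and 68.2 in siRNA libraries 2 and 3, and 94.2, 96.5 and 87.8 in the vehicle libraries (-0.38). Nov (CCN3) gave 12.4 and 16.81 in siRNA libraries 1 and 2, and 18.9, 16.75 and 21.6 in the vehicle libraries (-0.38). Nov was the only gene among the 151 with overlapping groups when all its plain numbers are read, since siRNA 2 was above vehicle 2. The remaining matrix genes were the collagen chain Col5a3 (-0.44), the glycoprotein Sned1 (-0.41), the olfactomedin-like Olfml2b (-0.30), the filament protein matrilin 2 (Matn2, -0.25) and the ADAMTS-like protein Adamtsl4 (-0.22).

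A further 11 genes encode peptidases, their inactive relatives and proteins that act at the cell surface or on the matrix (median -0.26). Dpep1, a membrane dipeptidase that cleaves leukotriene D and glutathione breakdown products, had 4 plain numbers, 22.0 and 22.9 in siRNA libraries 1 and 2, and 34.2 and 33.6 in vehicle libraries 2 and 3 (-0.59). Plat, tissue plasminogen activator, gave 31.9, 33.4 and 32.3 in the siRNA libraries, and 41.8 and 46.5 in vehicle libraries 2 and 3 (-0.44). Adam23, an adhesion protein of the ADAM family without protease activity, gave 48.5, 53.4 and 52.9 in the siRNA libraries, and 70.7 and 75.2 in vehicle libraries 2 and 3 (-0.50). These 3 had the lowest log2 differences here, and each lacked at least 1 of its 6 numbers. The metalloproteinases were nearer the cut-off, with Adam12, Mmp2 and Mmp19 at -0.25, -0.22 and -0.21. Heparan sulfate chains hold growth factors at the cell surface, and their regulators Sulf2, a 6-O-endosulfatase, and Gpc1, the proteoglycan glypican 1, were at -0.32 and -0.28. Thrombomodulin (Thbd), a thrombin receptor, was at -0.24, the endoplasmic reticulum peptidase Ermp1 at -0.26, and Capn6, a calpain without protease activity, at -0.24.

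Detoxification, redox and iron genes formed the largest group, with 18 genes and a median of -0.33. Glutathione transferases attach glutathione to reactive compounds so that they can be exported. Mgst1, the microsomal enzyme, gave 169, 170.0 and 175 in the siRNA libraries, and 219, 217 and 238 in the vehicle libraries (-0.39). The cytosolic mu-class enzyme Gstm1 gave 354, 377 and 369 in the siRNA libraries, and 482, 449.9 and 465 in the vehicle libraries (-0.34). Gstt1 of the theta class gave 83.5, 93.4 and 95.9 in the siRNA libraries, and 121, 103 and 119.8 in the vehicle libraries (-0.33). Vehicle 2 was the lowest vehicle library for all 3, and in Gstt1 it came within 6.75 units of the highest siRNA library. Gstm2, near the cut-off at -0.20, resembles Gstm1 in sequence, so reads could be shared between them.

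Enzymes against peroxide and superoxide were also present. Gpx3, the secreted glutathione peroxidase, gave 883, 889 and 1002 in the siRNA libraries, and 1164, 1138 and 1212 in the vehicle libraries (-0.34). Sod3, the superoxide dismutase of the extracellular space, had 4 plain numbers, 53.5 and 50.9 in siRNA libraries 1 and 2, and 73.4 and 75.2 in vehicle libraries 2 and 3 (-0.51). Both genes had groups that did not overlap. The cytosolic enzymes G6pdx (glucose-6-phosphate dehydrogenase) and Idh1 (isocitrate dehydrogenase), which make NADPH, were at -0.24 and -0.41. Ugt1a6a, which couples glucuronic acid to phenols, gave 26.4, 28.3 and 26.7 in the siRNA libraries, and 38.3, 39.6 and 39.4 in the vehicle libraries (-0.53). Its groups were 9.94 units apart, but exons shared within the Ugt1a cluster leave the assignment of its reads uncertain. Ces1g, a carboxylesterase, was lower still on the ratio scale (-0.58) at values between 4.82 and 8.57.

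Fth1, the heavy chain of the iron store ferritin, had the highest vehicle mean of the 151 genes. It had 4 plain numbers, 2801 and 2929 in siRNA libraries 1 and 2, and 3364 and 3392 in vehicle libraries 1 and 3 (-0.24). Steap3, the endosomal ferrireductase that readies transferrin iron for export to the cytosol, gave 165, 152 and 159 in the siRNA libraries, and 199, 182 and 194 in the vehicle libraries (-0.28). Mt1, a metallothionein that binds zinc and copper, gave 384, 429 and 411 in the siRNA libraries, and 471, 503 and 486 in the vehicle libraries (-0.25). The groups of each of these metal-handling genes were apart, by 435, 17.3 and 41.3 units. The other genes here were the oxygen-binding cytoglobin (Cygb, -0.32), xanthine dehydrogenase (Xdh, -0.34), cytochrome b5 (Cyb5a, -0.24), the vitamin C transporter Slc23a2 (-0.23) and the oxidoreductase Pyroxd2 (-0.39).

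Among 14 genes of growth factor and cytokine signalling (median -0.35), ligands, receptors and inhibitors were all represented. Of the ligands and secreted factors, Igf1, insulin-like growth factor 1, gave 1.39 and 1.37 in siRNA libraries 1 and 3, and 1.84 and 2.29 in vehicle libraries 1 and 2. With 4 plain numbers, its log2 difference of -0.55 moved between -0.69 and -0.39 when vehicle library 1 or vehicle library 2 was left out. Prl2c3, of the proliferin hormones, gave 25.4 and 24.4 in siRNA libraries 1 and 3, and 38.7 and 35.8 in vehicle libraries 1 and 2 (-0.58), and its near copy Prl2c2 leaves its reads uncertain. Both genes had 4 plain numbers, and neither had overlapping groups. Vegfb, a ligand of vascular endothelial growth factor receptor 1, gave 249.8, 230.3 and 229 in the siRNA libraries, and 280.1, 292 and 272 in the vehicle libraries (-0.25). Fstl1, a follistatin-like glycoprotein, was at -0.22, and the membrane-bound guidance ligand ephrin A2 (Efna2) at -0.34.

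Members of the interleukin 1 system were lower on the side of the receptor and of its inhibitor. Il1rn, the receptor antagonist, gave 13.4, 13.8 and 16.4 in the siRNA libraries, and 21.2, 20.4 and 19.9 in the vehicle libraries (-0.50). Il1r1, the signalling receptor, gave 29.6, 32.6 and 31.5 in the siRNA libraries, and 40.3, 39.8 and 44.6 in the vehicle libraries (-0.41). Both had 6 plain numbers and groups that did not overlap, with siRNA 3 the highest siRNA library for Il1rn and siRNA 2 for Il1r1.

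Of the growth factor receptors, Pdgfra, the alpha receptor of platelet-derived growth factor that marks fat progenitors, gave 40.9, 43.4 and 42.7 in the siRNA libraries, and 49.5 and 52.4 in vehicle libraries 1 and 3 (-0.27). Fgfr1, fibroblast growth factor receptor 1, gave 187, 173 and 175 in the siRNA libraries, and 199.6, 199.96 and 215 in the vehicle libraries (-0.20). Tgfbr3, the TGF-beta co-receptor betaglycan, gave 45.7 and 47.9 in siRNA libraries 2 and 3, and 53.6, 59.4 and 56.7 in the vehicle libraries (-0.27). All vehicle values of these receptors exceeded all siRNA values, with Fgfr1 only just inside the cut-off. Gas1, a Hedgehog co-receptor and growth arrest protein, gave 299, 309 and 334 in the siRNA libraries, and 411, 401 and 406 in the vehicle libraries (-0.37). Its lowest vehicle library lay 67.2 units above its highest siRNA library, a gap wider than the range within either group. The Wnt receptor Fzd1 was at -0.23 from 4 plain numbers, and Errfi1, which inhibits the epidermal growth factor receptor from inside the cell, at -0.36.

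Downstream signalling added 16 genes of small GTPases, kinases and ubiquitin ligases (median -0.32), the group with the most genes at -0.5 or less (5). Elmo1, which activates the GTPase Rac together with DOCK proteins, gave 13.4, 14.2 and 13.7 in the siRNA libraries, and 19.0, 22.2 and 20.9 in the vehicle libraries (-0.59). Ralgds, an exchange factor that links Ras to Ral, gave 60.6, 66.1 and 62.5 in the siRNA libraries, and 87.5, 86.7 and 91.9 in the vehicle libraries (-0.49). The SD over the siRNA libraries was 0.378 units for Elmo1 and 2.79 for Ralgds, and the groups were 4.81 and 20.5 units apart. Fbxl7, the substrate-binding part of a ubiquitin ligase, gave 6.97, 7.61 and 7.66 in the siRNA libraries, and 10.8 and 11.9 in vehicle libraries 1 and 2 (-0.61). Dapk1, the death-associated kinase, gave 3.35 and 3.32 in siRNA libraries 2 and 3, and 4.97, 4.32 and 5.39 in the vehicle libraries (-0.54). Each of these 2 lacked a number in 1 library. Sik1, a salt-inducible kinase that restrains CREB coactivators, gave 9.64 and 8.96 in siRNA libraries 1 and 2, and 11.7, 12.4 and 11.6 in the vehicle libraries (-0.35). The scaffold Ksr1, the ubiquitin ligases Rnf144a and Dtx3 and the calcineurin subunit Ppp3ca were at -0.34, -0.30, -0.21 and -0.28. The rest, Mknk2, Prickle2, Pxk, Rhoj and Tbc1d2b, lay between -0.26 and -0.22.

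Transcription and chromatin regulators numbered 13 (median -0.34). Cebpb encodes C/EBP beta, which acts at the onset of fat cell differentiation, and gave 126, 113 and 114 in the siRNA libraries, and 155, 171 and 149.9 in the vehicle libraries (-0.43). Its lowest vehicle library was 24.4 units above its highest siRNA library. Twist2, a bHLH factor of mesenchymal cells, gave 171, 171 and 167 in the siRNA libraries, and 196, 214 and 209.8 in the vehicle libraries (-0.29). Sox9, known from cartilage, where it drives matrix genes, gave 32.9, 34.6 and 42.8 in the siRNA libraries, and 45.3 and 46.5 in vehicle libraries 1 and 3 (-0.32). In Sox9 the siRNA library 3 stood near the vehicle libraries, and the log2 difference was -0.44 without it. Id4, an inhibitor of bHLH factors and a target of BMP signals, gave 23.2, 26.5 and 27.98 in the siRNA libraries, and 32.4 and 35.6 in vehicle libraries 2 and 3 (-0.39). Its vehicle library 1 was not a plain number. Vdr, the vitamin D receptor, was 25.7 ± 1.53 (SD, n = 3) with siRNA against 34.5 ± 0.99 (SD, n = 2) with vehicle. Nfatc4, a factor that calcineurin moves into the nucleus, was 20.5 ± 0.226 (SD, n = 2) with siRNA against 27.0 ± 0.509 (SD, n = 2) with vehicle. The other regulators were Gata6 (-0.38), the repressor Hic1 (-0.34), Nfia (-0.28), the coactivator Pnrc1 (-0.43), the polycomb-associated Rybp (-0.29) and the zinc finger proteins Zfp503 (-0.22) and Zxdc (-0.24).

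The immune and surface antigen genes (8 genes, median -0.31) included Ly6a, encoding Sca-1, a surface protein of mesenchymal progenitors, which gave 274, 233 and 245 in the siRNA libraries, and 325, 323 and 340.1 in the vehicle libraries (-0.39). Ly6c1 of the same gene family gave 173, 149 and 186 in the siRNA libraries, and 221, 223 and 231 in the vehicle libraries (-0.41), and reads could be shared between the family's members. The siRNA libraries of these genes differed from each other more than the vehicle libraries did, with an SD of 21.0 against 9.51 units for Ly6a and of 19.1 against 5.12 for Ly6c1. Lgals9, the secreted galectin 9, gave 197, 156 and 167 in the siRNA libraries, and 212, 225 and 223 in the vehicle libraries (-0.34). Ifi204, an interferon-inducible DNA sensor, gave 99.9, 86.4 and 88.3 in the siRNA libraries, and 109, 109 and 114 in the vehicle libraries (-0.27). Library 1 was the highest siRNA library for Lgals9, Ifi204 and Ly6a. Rnase4, a secreted ribonuclease, had the lowest difference of the group (-0.47), and the mucin-like podoplanin (Pdpn), the scavenger receptor Colec12 and the soluble scavenger protein Ssc5d were at -0.22, -0.23 and -0.26.

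Lysosome and autophagy genes (9) had the smallest median difference, -0.25, and none reached -0.4. Ctsb, the protease cathepsin B, gave 706, 684 and 755 in the siRNA libraries, and 885, 805 and 851 in the vehicle libraries (-0.24). Gpnmb, a glycoprotein of lysosomes and the cell surface, gave 719, 696 and 766 in the siRNA libraries, and 826, 845 and 919 in the vehicle libraries (-0.25). Npc2, which hands cholesterol out of the lysosome, gave 262, 274 and 270.0 in the siRNA libraries, and 319, 326 and 321 in the vehicle libraries (-0.26). Of these 3 genes Npc2 had the smallest SD, 5.90 units over the siRNA and 3.20 over the vehicle libraries, and its groups were 45.9 units apart. Gabarapl1, a ubiquitin-like protein of autophagosome membranes, gave 67.3 and 69.2 in siRNA libraries 2 and 3, and 85.4, 86.6 and 85.8 in the vehicle libraries (-0.33). Gla, the lysosomal alpha-galactosidase A, gave 23.2, 20.6 and 18.7 in the siRNA libraries, and 24.2 and 27.6 in vehicle libraries 1 and 3 (-0.31). The groups of Gla were only 0.95 units apart. The ganglioside activator Gm2a, the cystine exporter Ctns and the organelle biogenesis protein dysbindin (Dtnbp1) were at -0.30, -0.25 and -0.21.

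Lipid metabolism and transport gave 8 genes (median -0.36), none of them a lipid droplet protein. Plpp3, a phosphatase of extracellular lysophosphatidic acid, gave 147, 147 and 142 in the siRNA libraries, and 185, 180.4 and 199 in the vehicle libraries (-0.37). Acaa2, the thiolase that ends a round of mitochondrial beta oxidation, gave 35.2 and 34.4 in siRNA libraries 1 and 3, and 40.2, 47.8 and 45.6 in the vehicle libraries (-0.35). Lpin1, lipin 1, which makes diacylglycerol for triglyceride synthesis, gave 17.9 and 15.8 in siRNA libraries 2 and 3, and 19.6, 20.3 and 21.6 in the vehicle libraries (-0.28). The groups were 33.1 units apart for Plpp3 and 1.67 units apart for Lpin1. Slc22a5, the carnitine transporter that enables fatty acids to enter mitochondria, was 6.17 ± 0.735 (SD, n = 2) with siRNA against 8.64 ± 0.693 (SD, n = 3) with vehicle. Tmem86a, of the lysoplasmalogenase family, was at -0.49, the vitamin B12 carrier transcobalamin (Tcn2) at -0.39, the sugar phosphate exchanger Slc37a2 at -0.35 and the phospholipase Abhd4 at -0.26.

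Cytoskeleton, adhesion and endocytosis genes (12, median -0.34) lay in a narrow band from -0.40 to -0.21. Cdh11, the cadherin of mesenchymal cells, gave 57.8 and 57.8 in siRNA libraries 2 and 3, and 75.9, 73.3 and 78.7 in the vehicle libraries (-0.39). Marcks, a protein kinase C substrate that binds actin and phosphoinositides at the membrane, gave 194, 204 and 212 in the siRNA libraries, and 239, 274 and 272 in the vehicle libraries (-0.37). Neither gene had overlapping groups. The relative of Marcks, Marcksl1, was at -0.29. The endocytic adaptors Dab2 and Gulp1 were at -0.24 and -0.40, the junction protein Clmp at -0.39, the actin-binding coronin Coro2b at -0.32, liprin beta (Ppfibp2) at -0.37, and the filament-forming septins Sept5 and Sept9 both at -0.22. Pcdhga1 (-0.35) shares its last exons with the other genes of the protocadherin gamma cluster, so its reads are uncertain. No gene of the contractile apparatus was among them.

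Small groups completed the set. Of 6 genes of growth restraint, RNA binding and translation (median -0.34), Gadd45a, a stress-induced growth arrest protein, gave 37.4, 41.7 and 39.1 in the siRNA libraries, and 45.6, 50.1 and 51.5 in the vehicle libraries (-0.32). Pdcd4, an inhibitor of translation initiation, was 30.1 ± 2.50 (SD, n = 3) with siRNA against 38.6 ± 2.32 (SD, n = 3) with vehicle. Cirbp, the cold-inducible RNA-binding protein, and Eif4e3, a cap-binding protein, each had a low value in siRNA 3, and their log2 differences were both -0.36. Ypel3 was at -0.31 and Rsrp1 at -0.20. The 5 glycosyltransferases and sulfotransferases (median -0.29) build the sugar chains of glycolipids and glycoproteins, and the lowest was the sialyltransferase St6galnac2, at 11.3 ± 0.926 (SD, n = 2) with siRNA against 16.0 ± 0.87 (SD, n = 2) with vehicle. B4galt5, Chst11, Galnt2 and St3gal4 were at -0.31, -0.29, -0.23 and -0.23. The remaining 14 genes had no shared function. Among them Lctl, a lactase-like protein, gave 13.8, 15.7 and 15.3 in the siRNA libraries, and 21.7, 20.1 and 20.6 in the vehicle libraries (-0.48), and gamma-synuclein (Sncg) gave 108, 119 and 102 in the siRNA libraries, and 127, 138 and 133 in the vehicle libraries (-0.27). The near copies Rtl8c and Rtl8a, derived from a retrotransposon, were at -0.47 and -0.28 and could share reads. The others, Grina, Itm2b, Lhfpl2, Lrrn4cl, Nt5dc2, Tmem176a, Tmem185a, Ttyh2 and Ttyh3, lay between -0.50 and -0.22.

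To place these genes in their pathways, 25 gene lists were counted over the whole second table. The lists were written from general knowledge, but with earlier results of these data known, so their counts are descriptions without a test. The extracellular matrix list had 40 genes with enough numbers, of which limma placed 23 lower and 17 higher (16 of the 23 among the 151 genes), against 48.8% lower over the table. The genes on the higher side included Lama5, Fmod, Thbs1, Lox and Hspg2, so the matrix genes did not share a direction. The list median was -0.21. In the lysosome and autophagy list, 12 of 12 genes were lower, 5 of them past the cut-off, with a list median of -0.17, but only 6 of the 12 passed limma once the libraries were scaled to 1 median (0 higher, list median -0.10). Of the oxidative stress and detoxification list, 9 of 10 were lower and Aldh1a7 was higher, and 7 of the 9 belonged to the 151 genes. Of the preadipocyte and fibroblast markers, 7 of 10 were lower, with Ly6c1, Ly6a, Twist2, Pdgfra, Fstl1 and Col6a2 past the cut-off, while Mgp, Tagln and Acta2 were higher. Of 19 genes of actin and contraction, 0 were lower and 19 were higher. Of 7 Wnt, Notch and Hedgehog genes, 2 were lower, Gas1 and Fzd1, and 5 were higher. The adipocyte marker list had 6 genes with enough numbers, 5 lower and 1 higher, of which Cebpb and Lpin1 are among the 151 and Adipoq and Lpl met the cut-off but were left out by name. The interferon response list had 7 of 8 lower, with Lgals9 and Ifi204 among the 151. The growth factor list also had 7 of 8 lower, with Igf1, Pdgfra, Vegfb and Fgfr1 among them. After scaling, limma placed 37.1% of all 496 genes lower and 50.6% higher. In that fit 22 of 40 matrix genes were lower and 17 higher. For detoxification genes it was 7 of 10 lower and 1 higher, and for preadipocyte markers 6 of 10 lower and 3 higher. Adipocyte markers gave 4 of 6 lower and 1 higher. Interferon genes gave 6 of 8 lower and 1 higher, and growth factor genes 5 of 8 lower and 1 higher. The counts of actin and of Wnt, Notch and Hedgehog genes stayed as given. Several genes stand in more than 1 list, the methods name DESeq2 with a p threshold for differentially expressed genes without saying whether it chose this table, and in bulk RNA fewer cells of a type cannot be told apart from less RNA per cell. The leukocyte list and the list of keratinocyte, epithelial and mesothelial markers had 0 genes in the second table. The count table held 5 and 6 of their genes, and neither table covers all genes.

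**Figure D3:**
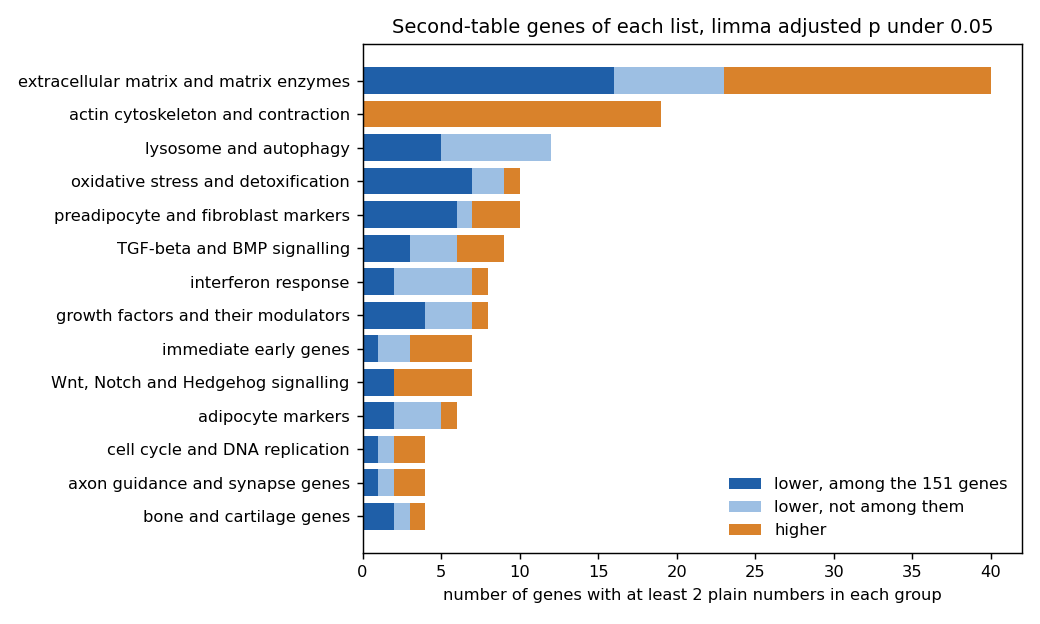
Bars give, for each list with at least 4 genes that had plain numbers in at least 2 libraries of each group, the number of genes placed lower (dark blue for the 151 genes, light blue for others) or higher (orange) with siRNA at a limma adjusted p under 0.05. On the deposited scale the matrix list is split 23 to 17, the lysosome list is 12 to 0 and the actin list is 0 to 19.

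By library, values could be compared for the genes with 6 plain numbers. For these 84 genes, the median log2 distance from the gene's own mean was -0.17, -0.14 and -0.15 in siRNA libraries 1, 2 and 3 and 0.12, 0.14 and 0.19 in vehicle libraries 1, 2 and 3. For the 189 other genes with 6 plain numbers it was 0.07, 0.09 and 0.07, then -0.11, -0.08 and -0.05. Vehicle 3 gave the highest value in 44 of the 84 genes and each other vehicle library in 20, while siRNA 1 gave the lowest in 39. Vehicle 3 also stood apart in the count table, where its 232 genes summed to 130467 estimated counts against 24314 to 28920 in the other 5 libraries. Without vehicle 3, 137 of the 151 genes still met the cut-off and limma placed 145 of the 151 lower. In the same fit, limma placed 227 of all 496 genes lower and 239 higher. The replicate spread, which the rule did not use, was a median SD of 0.07 on the log2 scale in both groups (106 genes with 3 siRNA and 113 with 3 vehicle numbers) and 0.06 in both groups for the other genes.

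**Figure D4:**
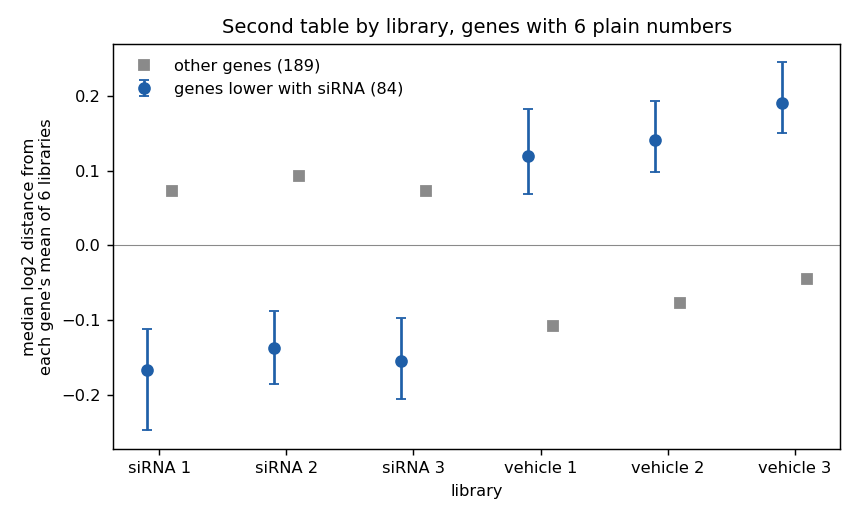
Vertical axis, median over genes of the log2 value minus the gene's mean over the 6 libraries (horizontal axis); blue circles are the 84 chosen genes with 6 plain numbers, with bars from the lower to the upper quartile, and grey squares the 189 other such genes. The blue medians lie between -0.17 and -0.14 in siRNA and between 0.12 and 0.19 in vehicle libraries, with vehicle 3 the highest.

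The cut-off fell within a continuous range of values. Just inside it were Rsrp1 (-0.204), Fgfr1 (-0.201) and Gstm2 (-0.201), and just outside it were the lysosomal peptidase Scpep1 (-0.1999), Olfml3 (-0.198) and Pcx (-0.197). Scaling each library to the same median moved the median over all 496 genes from 0.13 to 0.20 and that of the 151 genes from -0.32 to -0.25. After it 100 of the 151 genes met the cut-off, and Col6a2, Fth1, Fgfr1, Gstm2 and Rsrp1 were no longer among them, at -0.14, -0.17, -0.13, -0.13 and -0.13.

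Only Capn6 and Sncg of the 151 genes are also in the count table. Capn6 had 1106, 1189 and 1471 estimated counts with siRNA and 1258, 1472 and 8245 with vehicle. Its second-table values were 72.2, 70.2 and 69.9 in the siRNA libraries, then 79.9, 84.6 and 85.6 in the vehicle libraries. Sncg had 11, 15 and 4 estimated counts in the siRNA libraries, then 15, 13 and 52 in the vehicle libraries. In the count table the siRNA and vehicle ranges of both genes overlapped, and vehicle 3 was the highest library by far. The ratio of the second-table value to the count thus changed from library to library, by 6.29-fold for Capn6 and 10.0-fold for Sncg between the highest and lowest library, and by 1.37-fold and 3.22-fold without vehicle 3. Mean counts of Capn6 were 1255 with siRNA and 3658 with vehicle (1365 without vehicle 3). Those of Sncg were 10 with siRNA and 26.7 with vehicle (14 without vehicle 3). The vehicle mean was the higher one in both tables, but the counts are unscaled and vehicle 3 was highest for all 17 shared genes. Lama5, higher with siRNA in the second table (log2 difference 0.54), also had the higher mean count with vehicle, 68.3 against 22.7. The order of mean counts thus says nothing particular about Capn6 and Sncg. The unit of the second table is not known.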

How the data were processed

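Poly(A) RNA of 6 samples labelled 3T3-L1 to 3T3-L6 was sequenced as DNA nanoballs, 3 with Lhx8 siRNA and 3 with vehicle, and the sample titles gave group and replicate. The submitters' processing notes and the methods of the study name HISAT, Bowtie2, RSEM and DESeq2 without versions. For the genome build, annotation and use of strand, nothing was given in the sources used here. Estimated counts, which the authors deposited unscaled, fill the count table of 232 genes. The authors deposited group means, a log2 ratio and a p-value beside them, which were not used. The second table repeats these genes and adds 602 with values that the authors deposited as read counts. Only 0.920% of its plain numbers are whole, so the deposited values were taken as a score, with scale and depth unknown, and not as counts. The planned design had named this case.

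Of 3612 cells, 3042 are plain numbers, 528 are numbers in a date format and 42 are calendar dates. The date-format cells equalled the mean of the plain numbers of their group wherever this could be read (524 cells), so they hold no measurement. Among plain numbers below 100, 4 of 1880 have decimals from 1 to 12 hundredths and 0 have a single decimal, against 147 and 111 of 1162 from 100 upward. Missing cells thus depend on the digits of a value and fall mostly below 100. For the 151 genes, 823 of 906 cells are plain, and 84, 51 and 16 genes have 6, 5 and 4 of them.

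Differences were log2 ratios of group means, each plus a pseudocount of 0.1. Genes with at least 2 plain numbers per group were fitted with limma 3.58.1 (R 4.3.3, trend, unpaired, adjusted by Benjamini-Hochberg with a threshold of 0.05), tested on simulated data first. A p-value here reflects only how far these libraries differ, which may be technical. The members and lists were chosen with earlier results of these data known, and function groups after the values were seen. Genes given with all library values were the 10 lowest with 6 numbers, the 5 lowest with fewer, the 5 with the highest vehicle mean, the 3 nearest the cut-off on each side and the 2 lowest of each list; further genes were added after their values were seen. Some genes that the rule names are not reported here. Alternatives were other pseudocounts, filters, scaling, a cut-off of -0.3, filled cells, mean log2 values, a replicate block and leaving out each library.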

Additional observations from a re-analysis of the deposited data

How the results depend on the processing

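Leaving out 1 library at a time gave 140 to 157 genes meeting the rule, 137 to 147 of them among the 151. In these fits limma placed 145 to 151 of the 151 genes lower. Over all 496 genes it placed 222 to 243 lower and 214 to 239 higher, so the count says nothing particular about the 151. The lowest count of genes meeting the rule came without vehicle 3. Requiring all 3 plain numbers in each group left 84 genes, since the others could not enter, and 84 of those passed limma. Of all 273 genes in that fit, 149 were placed lower and 122 higher. Scaling each library to 1 median left 100 genes, and a cut-off of -0.3 left 83. With the filled date-format cells read as values, 150 of 151 genes had groups that did not overlap. The filled cells equal their group means and cannot make or remove an overlap, so this count follows from the plain numbers alone. Among all 273 genes with 6 plain numbers, 53.5% showed that order. Over the 44 named genes of the set, 552 differences were recomputed. Of these, 517 moved by less than the replicate SD, 35 moved by more, 21 of them under scaling, and 0 changed sign. The 517 include differences that could not move, from filled cells (44), a mean of at least 1 (43) and all 3 plain numbers (25). Leaving out a library with no plain number for a gene could not move its difference either. As the genes were chosen for a negative difference, these counts do not measure stability.

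Replicate numbers were shared by the groups, but same-numbered libraries correlated in their deviations at only 0.25, 0.12 and 0.03 over 273 genes, and 3 of 6 libraries correlated better with another number, so the pairing rests on a number alone. A fit with the replicate block tested 137 of the 151 genes, placed 137 of them lower and changed no call among these. Of all 455 genes in that fit, 223 were placed lower and 222 higher, so nearly every gene passed.

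The depth behind the second table is not known, and the cells lost to dates removed numbers from 67 of the 151 genes.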

Other observations

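In the second table, 106 genes had too few plain numbers for the rule, and with the filled cells read as values 33 of these with kept names had a log2 ratio at or below -0.2. Their plain numbers are too few for a comparison, and 5 of these genes, chosen after their values were seen, are given as values. Kcne4, a regulatory subunit of potassium channels, had 0.82 and 0.66 in siRNA libraries 2 and 3 and 2.56 in vehicle library 3. Ucp2, a mitochondrial carrier, had 6.31, 5.36 and 7.54 in the siRNA libraries and 13.6 in vehicle library 1. Fap, fibroblast activation protein, a surface protease of activated fibroblasts, had 1.89 in siRNA library 3 and 4.42 in vehicle library 3. Prl2c2, the near copy of Prl2c3, had 20.5, 25.9 and 30.2 in the siRNA libraries and 49.2 in vehicle library 3. Ncam1, a neural cell adhesion molecule, had 72.5 in siRNA library 1 and 97.7, 101.3 and 102 in the vehicle libraries.

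Over the 17 genes present in both tables, vehicle 3 was the highest library for 17 in the count table. For the 6 of them with 6 plain numbers, the second-table value per estimated count differed between libraries by 3.99-fold to 11.1-fold, with a median of 6.69-fold, so the values of the second table are not the counts of the first multiplied by 1 number per gene. No source used here describes the step between the tables.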
